A study of Caenorhabditis elegans with 8 samples.

Results

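The 9 genes described here encode tubulins of Caenorhabditis elegans: the alpha-tubulins tba-1, tba-2, tba-4 and mec-12, the beta-tubulins tbb-1, tbb-2, tbb-4 and mec-7, and the gamma-tubulin tbg-1. They were chosen by gene name and not by their values. All 9 were listed among the 13692 genes of the embryo table and the 16249 genes of the L1 table, and all 9 passed the filter on low counts in both. RNA was measured in 4 groups of 2 libraries each: FAS43 larvae of the first stage (L1), N2 L1 larvae, FAS43 mixed-stage embryos and N2 mixed-stage embryos, all grown at 20 °C. N2 is the laboratory wild type. FAS43 is a strain null for the replacement histone H3.3, which carries the allele uge44 over his-69 and his-70, tm2066 in his-72, uge18 in his-74 and ok2289 in his-71. Whole animals or whole embryos were extracted, so a lower level can mean fewer cells of a type or less RNA per cell, and these cannot be told apart. The labels call the libraries of a group duplicates and do not give separate cultures, so the p-values cover the spread among these libraries alone, which can be technical.

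Microtubules are polymers of alpha- and beta-tubulin pairs, and gamma-tubulin at the centrosome starts their growth. In the C. elegans embryo, tba-1, tba-2, tbb-1 and tbb-2 supply the mitotic spindle of dividing cells. The isotypes mec-7 and mec-12 are best known from the touch receptor neurons, whose processes hold unusually wide microtubules that are needed to sense gentle touch, and tbb-4 is used in ciliated sensory neurons.

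Libraries held 17408914 to 30127179 counts. Of the mutated H3.3 genes, his-72 had 29 to 162 counts in the 4 FAS43 libraries and 10881 to 59440 in the 4 N2 libraries, and his-71 had 2 to 6 in FAS43 against 2412 to 4595 in N2. In L1, his-70 had 0 counts in both FAS43 libraries against 13 and 41 in N2. The counts of his-74 overlapped, with 301 to 2063 in FAS43 against 294 to 3587 in N2, so its RNA gave no check of the allele uge18. No gene named his-69 was listed for either stage. Marker sums set some libraries apart, on a scale of CPM (counts scaled to the library total) with TMM factors over all 8 libraries. The 17 listed of 18 early embryo and maternal genes summed to 1703 and 714 CPM in FAS43 L1 against 529 and 231 CPM in N2 L1. The 16 listed in embryos summed to 1194 and 3427 CPM in FAS43 against 2715 and 1650 CPM in N2. Thus FAS43 L1 replicate 1, and in embryos FAS43 replicate 2 and N2 replicate 1, had the highest maternal sums of their stage.

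The level of each gene was taken as CPM per kilobase of its exons, on the 8-library scale, so that genes could be compared. The ubiquitous beta-tubulin tbb-2 had the highest mean of the 9 genes in every group. It measured 1059 and 551 CPM per kb in FAS43 L1 and 484 and 485 in N2 L1, against 754 and 2617 in FAS43 embryos and 1921 and 1199 in N2 embryos. Its partner tbb-1 measured 498 and 253 CPM per kb in FAS43 L1 and 236 and 276 in N2 L1, against 452 and 1086 in FAS43 embryos and 1104 and 622 in N2 embryos. In N2 both L1 libraries lay below both embryo libraries, whereas in FAS43 the L1 and embryo libraries overlapped for both genes.

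The ubiquitous alpha-tubulins had a like pattern. The level of tba-1 was 733 and 358 CPM per kb in FAS43 L1 and 323 and 426 in N2 L1, against 591 and 1716 in FAS43 embryos and 1340.3 and 878 in N2 embryos. For tba-2 it was 786 and 392.3 CPM per kb in FAS43 L1 and 323 and 347 in N2 L1, against 662 and 2014 in FAS43 embryos and 1685 and 937 in N2 embryos. The 4 ubiquitous isotypes could be ordered by mean (tbb-2, then both alpha-tubulins, then tbb-1), but within FAS43 L1, FAS43 embryos and N2 embryos each neighbour in that order overlapped the next across libraries. Within every single library tbb-2 was the highest of these 4 genes and tbb-1 the lowest. In N2 L1 the 2 libraries of tbb-2 lay above those of tba-1, those of tba-1 and tba-2 overlapped, and tbb-1 lay below tba-2. The gamma-tubulin gene tbg-1 was far lower, at 53.5 and 36.0 CPM per kb in FAS43 L1 and 29.8 and 20.5 in N2 L1, against 82.2 and 118.8 in FAS43 embryos and 127 and 69.2 in N2 embryos.

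The touch neuron isotypes ran the other way. For mec-7 the level was 77.0 and 198 CPM per kb in FAS43 L1 and 135 and 163 in N2 L1, against 32.98 and 21.1 in FAS43 embryos and 20.3 and 29.6 in N2 embryos. For mec-12 it was 63.3 and 148 CPM per kb in FAS43 L1 and 120.0 and 121 in N2 L1, against 18.6 and 8.65 in FAS43 embryos and 7.30 and 20.6 in N2 embryos. All 4 L1 libraries lay above all 4 embryo libraries for both genes. The third neuronal isotype did not share this pattern: tbb-4 measured 24.9 and 8.82 CPM per kb in FAS43 L1 and 20.5 and 24.2 in N2 L1, against 42.9 and 29.3 in FAS43 embryos and 31.9 and 42.8 in N2 embryos. All its L1 libraries lay below all its embryo libraries. The alpha-tubulin gene tba-4 was the lowest of the 9 in every group by its mean, at 9.04 and 15.2 CPM per kb in FAS43 L1 and 12.9 and 18.1 in N2 L1, against 5.01 and 3.21 in FAS43 embryos and 3.27 and 6.26 in N2 embryos, and its 4 L1 libraries lay above its 4 embryo libraries. In embryos mec-7 and mec-12 ranked below tbg-1 and tbb-4, and in L1 they ranked above both.

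**Figure D1:**
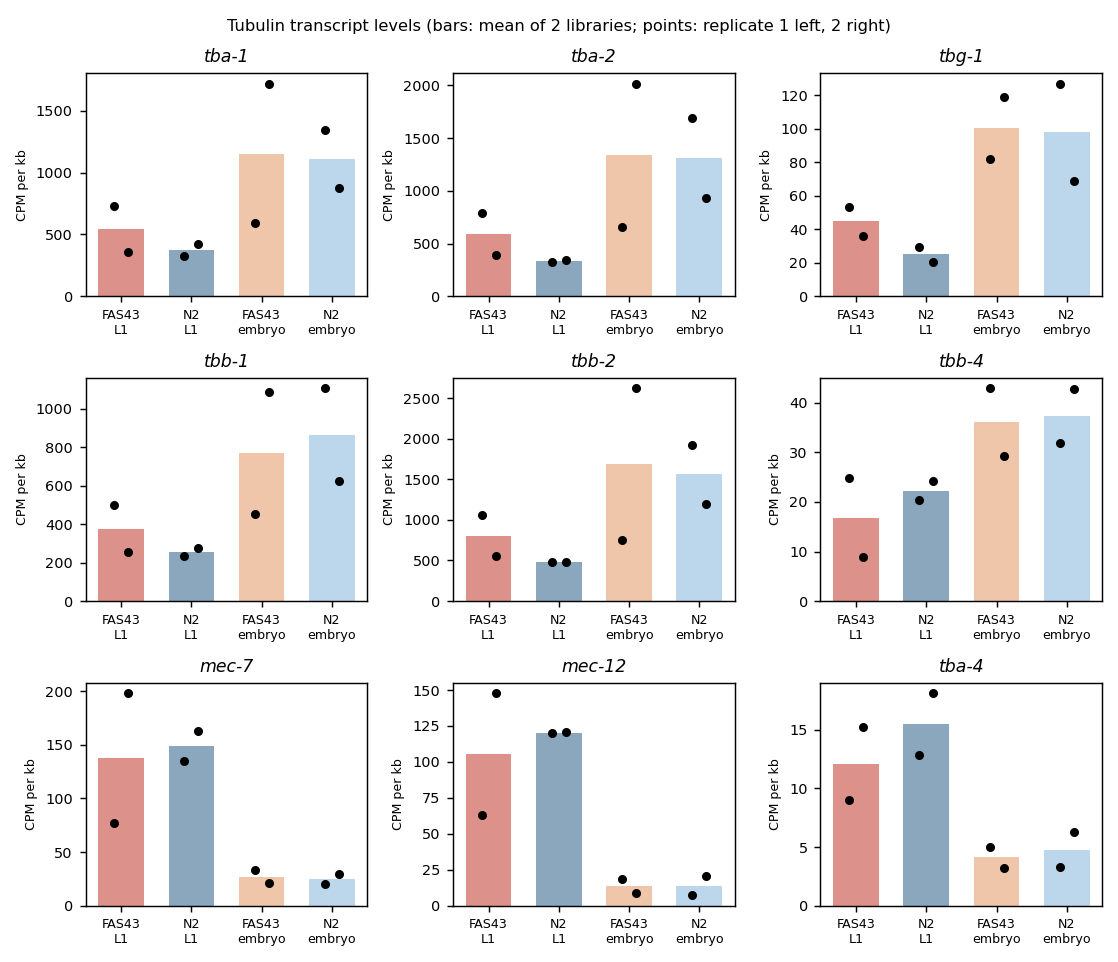
Level of each tubulin gene in CPM per kilobase of exons (y axis, from 0, own scale per gene) in FAS43 L1, N2 L1, FAS43 embryos and N2 embryos; points are the 2 libraries of a group and bars their mean. For mec-7, mec-12 and tba-4 all 4 L1 libraries lie above the 4 embryo libraries, for tbb-4 and tbg-1 they lie below them, and the 2 FAS43 embryo libraries of tbb-2 lie at 754 and 2617 CPM per kb.

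Tubulin genes are alike in sequence, and how reads that fit several copies were counted is not given in the sources used here, so a split between isotypes is less certain than their sum. The genes lie apart in the genome (WBcel235, Ensembl annotation): tbb-2, tbb-1, tbg-1 and mec-12 on chromosome III, tba-1 and tba-2 on I, tba-4 on II, and tbb-4 and mec-7 on X. The span of mec-12 (chromosome III, 3131574 to 3139234, minus strand) overlaps that of Y53G8B.1 on the other strand by 76 bases, and their exons overlap. The span of tbb-2 overlaps that of the piRNA gene 21ur-13952 on the same strand by 21 bases, also with overlapping exons. One of the genes under the allele uge44, his-70, lies 42087 bases from tbb-2 (chromosome III, 4015910 to 4017627).

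Stage was compared with edgeR's quasi-likelihood test on all 8 libraries together and the 13335 genes that both tables list. In FAS43, 2 of the 9 genes passed an adjusted p of 0.05 as higher in L1 larvae than in embryos and 0 as lower, where 25.5% of all genes were called, 15.8% higher and 9.66% lower. At an unadjusted p under 0.05, 1 gene (tbg-1) was lower, and DESeq2 called 0 lower. The 2 genes were mec-12, 7.77-fold higher (2.96 on the log2 scale, SE 0.654, edgeR adjusted p = 0.00605), and mec-7, 5.09-fold higher (2.35, SE 0.588, edgeR adjusted p = 0.0105). The 4 ubiquitous isotypes had log2 fold changes of -1.08 (tba-1), -1.18 (tba-2), -1.03 (tbb-1) and -1.07 (tbb-2), with edgeR adjusted p from 0.229 to 0.288. The values for tbg-1, tbb-4 and tba-4 were -1.17, -1.097 and 1.56, not called (edgeR adjusted p = 0.114, 0.174 and 0.102), while DESeq2 called tba-4 (adjusted p = 0.0346). Without FAS43 embryo replicate 2 the values of tba-1, tba-2, tbb-1 and tbb-2 were -0.12, -0.17, -0.27 and 0.093, and mec-12 (edgeR adjusted p = 0.0860) and mec-7 (0.117) lost their calls. Both calls were also lost without FAS43 L1 replicate 2 (edgeR adjusted p = 0.0539 for mec-12 and 0.202 for mec-7, whose log2 fold changes were then 2.22 and 1.51), and without FAS43 embryo replicate 1 that of mec-12 was 3.61.

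In N2, 5 of the 9 genes passed: 2 rose in L1 larvae relative to embryos (mec-7 and mec-12) and 3 fell (tba-2, tbb-1 and tbg-1). Of all genes tested 38.8% were called, 22.6% higher and 16.2% lower in N2 L1. The level of mec-12 was 8.62-fold higher (3.11 on the log2 scale, SE 0.658, edgeR adjusted p = 0.00189) and that of mec-7 was 5.95-fold higher (2.57, SE 0.593, edgeR adjusted p = 0.00323). The fall of tbg-1 was -1.96 on the log2 scale (SE 0.552, edgeR adjusted p = 0.0104), that of tba-2 was -1.97 (SE 0.742, edgeR adjusted p = 0.0436) and that of tbb-1 was -1.75 (SE 0.676, edgeR adjusted p = 0.0477). The other ubiquitous genes tbb-2 and tba-1 had log2 fold changes of -1.69 and -1.57 that did not pass in edgeR (edgeR adjusted p = 0.0811 and 0.0866). DESeq2 called both lower (-1.74 and -1.62, DESeq2 adjusted p = 0.0231 and 0.0307). The value of tba-4 was 1.70 (edgeR adjusted p = 0.0596, DESeq2 adjusted p = 0.0189), and that of tbb-4 was -0.74 (edgeR adjusted p = 0.322). The median of the 9 genes was -1.57 and that of all genes was 0.0014.

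Single N2 libraries decided several of these calls. Without N2 embryo replicate 1 the calls of mec-7 (log2 fold change 2.33, edgeR adjusted p = 0.0598), tbg-1 (-1.46, 0.114), tba-2 (-1.48, 0.266) and tbb-1 (-1.28, 0.285) were lost. Without N2 L1 replicate 2 those of tbg-1 (edgeR adjusted p = 0.0784), tba-2 (0.135) and tbb-1 (0.123) were lost, and without N2 L1 replicate 1 those of tba-2 (0.147) and tbb-1 (0.159). The 2 weakest calls also depended on the FAS43 embryo libraries, which enter through the shared spread: tbb-1 was at 0.0583 without replicate 1 and 0.0570 without replicate 2, and tba-2 at 0.0514 without replicate 1 (edgeR adjusted p). Without N2 embryo replicate 2 tba-4 passed (log2 fold change 2.24, edgeR adjusted p = 0.0496). The rise of mec-12 in N2 kept its call whichever library was left out, with edgeR adjusted p up to 0.0454. Its log2 fold change was 2.54 without N2 embryo replicate 1 and 4.04 without N2 embryo replicate 2. That tba-2, tbb-1 and tbg-1 were called in N2 and not in FAS43 does not show a difference between the strains, which was tested on its own and is given with the strain comparisons.

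**Figure D2:**
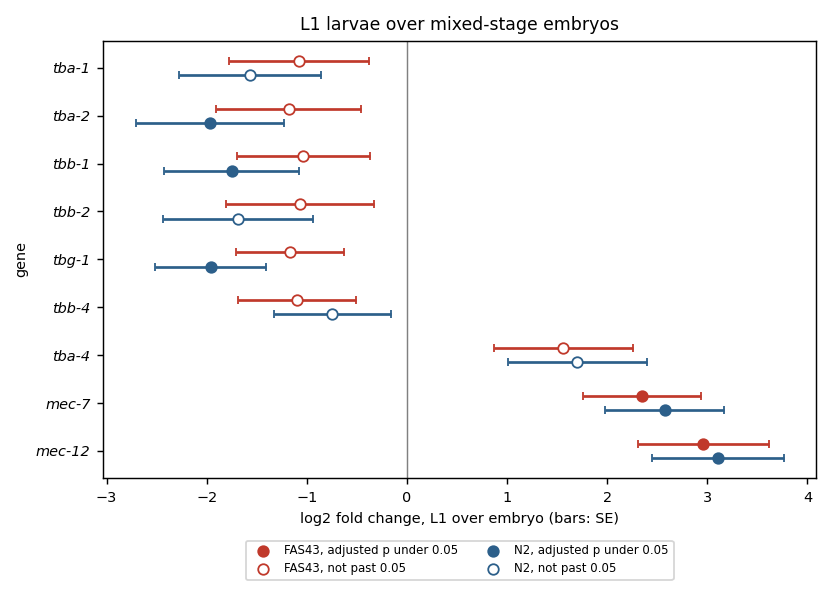
Log2 fold change of L1 over embryo for each tubulin gene (x axis) in FAS43 (upper marker) and N2 (lower marker) from edgeR, with bars of 1 SE; filled markers passed an adjusted p of 0.05. In both strains mec-7 and mec-12 lie to the right and pass, and the 4 ubiquitous isotypes, tbg-1 and tbb-4 lie to the left.

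Cell type markers moved with stage as well. Of 10 touch receptor neuron genes tested, none of them a tubulin, 8 rose in FAS43 L1 and 9 in N2 L1, and 0 fell. The shares of all genes called higher were 15.8% in FAS43 and 22.6% in N2. The 10 touch neuron genes summed to 234 and 552 CPM in FAS43 L1 and 359 and 425 CPM in N2 L1, against 69.04 and 24.7 CPM in FAS43 embryos and 21.4 and 55.4 CPM in N2 embryos. The 15 ciliated neuron genes summed to 301 and 279 CPM in FAS43 L1 and 394 and 268 CPM in N2 L1, against 192 and 118.9 CPM in FAS43 embryos and 115.8 and 245 CPM in N2 embryos, so this sum was higher in every L1 library than in any embryo library while tbb-4 was lower. Of these 15 ciliated neuron genes 1 was called higher in FAS43 L1 and 2 in N2 L1, and 0 lower in either. These counts lay below the shares of all genes called higher, 15.8% in FAS43 and 22.6% in N2, though all 15 values were positive in both strains. The stage difference was not limited to touch and ciliated neurons. The 14 genes of all neurons summed to 1575 to 3015 CPM in the 4 L1 libraries against 381 to 568 CPM in the 4 embryo libraries, 10 body wall muscle genes to 11674 to 22921 against 1873 to 3925 CPM, and the 9 intestine genes in both tables to 2319 to 11957 against 313 to 743 CPM. The 11 epidermis and cuticle genes in both tables ran the other way, at 543 to 3303 CPM in L1 against 4110 to 7200 CPM. Every L1 library lay below every embryo library in this sum, as for tbb-4. Of 16 maternal genes 0 were called lower in FAS43 L1 and 7 in N2 L1, beside 9.66% of all genes in FAS43 and 16.2% in N2. Their values were negative for 14 in FAS43 and 16 in N2, with medians of -0.55 and -1.63. The part of these cell types in the stage values was not tested.

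Ratios within a library do not depend on how libraries are scaled. The level of mec-12 per 100 of tba-1 plus tba-2 was 4.17 and 19.7 in FAS43 L1 and 18.6 and 15.6 in N2 L1, against 1.48 and 0.232 in FAS43 embryos and 0.241 and 1.14 in N2 embryos. The log2 ratio averaged -3.01 ± 1.06 over the 4 L1 libraries and -7.50 ± 1.43 over the 4 embryo libraries (SD), and the difference of 4.49 had p = 0.0286 in a two-sided exact permutation test, the smallest p that 4 against 4 libraries can give. For mec-7 plus tbb-4 over tbb-1 plus tbb-2 the log2 ratio averaged -2.53 ± 0.939 in L1 and -5.17 ± 1.03 in embryos, a difference of 2.64 (two-sided exact permutation p = 0.0286 and 0.0286 after adjustment over the 2 ratios). Every L1 library lay above every embryo library in both ratios, and within either strain as well. For the beta ratio the gap was narrow, with 6.55 per 100 in FAS43 L1 replicate 1 against 6.29 in FAS43 embryo replicate 1.

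The beta ratio rested on mec-7. Taken alone, mec-7 was at 4.95 and 24.6 per 100 of tbb-1 plus tbb-2 in FAS43 L1 and 18.7 and 21.4 in N2 L1, against 2.73 and 0.569 in FAS43 embryos and 0.673 and 1.63 in N2 embryos, a log2 difference of 3.70 (two-sided exact permutation p = 0.0286). Taken alone, tbb-4 was at 1.599 and 1.096 in FAS43 L1 and 2.84 and 3.17 in N2 L1, against 3.56 and 0.790 in FAS43 embryos and 1.06 and 2.35 in N2 embryos. Its log2 difference was 0.30 (two-sided exact permutation p = 0.629), with overlapping stages. The ratio of mec-7 to tbb-4 was 3.09 and 22.5 in FAS43 L1 and 6.58 and 6.74 in N2 L1, against 0.769 and 0.720 in FAS43 embryos and 0.637 and 0.693 in N2 embryos, so mec-7 was below tbb-4 in all 4 embryo libraries and above it in all 4 L1 libraries.

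Within the ubiquitous isotypes the proportions varied little between libraries. The summed level of tba-1 and tba-2 over that of tbb-1 and tbb-2 lay between 0.898 and 1.04 in the 8 libraries, although the levels themselves spanned a far wider range. The ratio of tbb-2 to tbb-1 lay between 1.67 and 2.41, with both of these extremes in FAS43 embryos, and that of tba-2 to tba-1 lay between 0.814 in N2 L1 replicate 2 and 1.26 in N2 embryo replicate 1. As a share of the 4 beta-tubulins, mec-7 made up 4.64% and 19.6% in FAS43 L1 and 15.4% and 17.2% in N2 L1, against 2.57% and 0.561% in FAS43 embryos and 0.661% and 1.56% in N2 embryos.

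**Figure D3:**
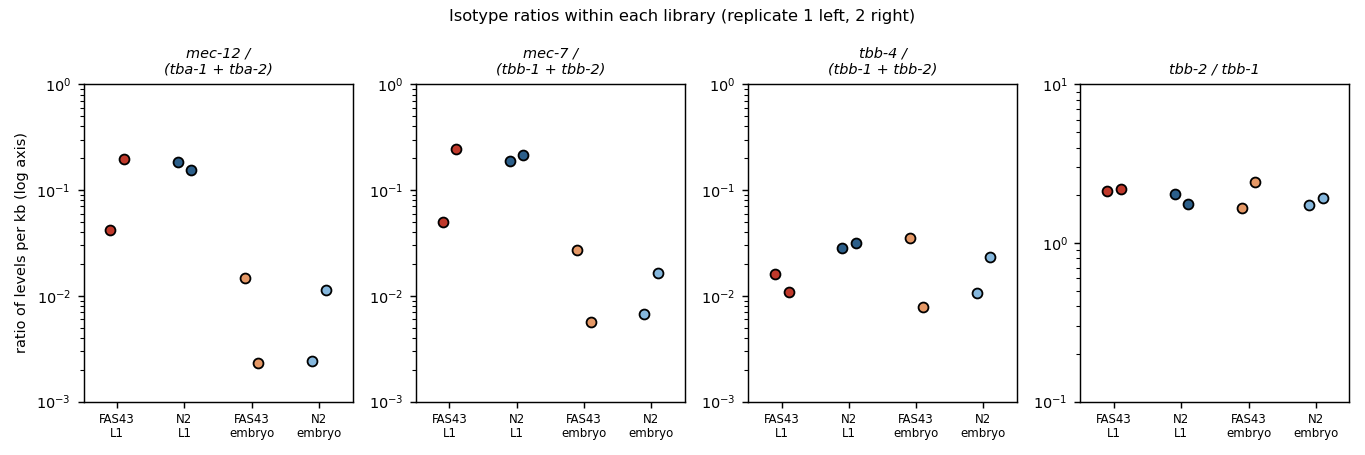
Ratios of levels per kilobase within each library (log axes; the rightmost panel spans other limits) in FAS43 L1, N2 L1, FAS43 embryos and N2 embryos, 2 points per group. The ratios of mec-12 and mec-7 to the ubiquitous isotypes separate the stages, with FAS43 L1 replicate 1 nearest to the embryos, the ratio of tbb-4 overlaps between stages, and tbb-2 over tbb-1 stays between 1.67 and 2.41.

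The strains were compared within each stage, to ask whether loss of H3.3 goes with other tubulin levels. In L1 larvae 0 of the 9 genes were called by edgeR over all 16099 genes tested, of which 0.0186% were called (0.00621% higher and 0.0124% lower), and 0 by DESeq2. At an unadjusted p under 0.05 the count was also 0. CPM here were normalised within the stage. The 4 ubiquitous isotypes and tbg-1 had positive log2 fold changes of FAS43 over N2, from 0.60 for tba-1 to 0.87 for tba-2 and tbg-1, all with edgeR adjusted p = 0.9996. The value of tba-2 was 0.16 without FAS43 L1 replicate 1 and 1.34 without FAS43 L1 replicate 2. FAS43 L1 replicate 1 was the highest library for each of these 5 genes, and both FAS43 libraries lay above both N2 libraries for tba-2, tbb-2 and tbg-1. For tbb-2 the values were 1651 and 770 CPM in FAS43 against 705 and 698 CPM in N2, a log2 fold change of 0.79 (SE 0.763), and without FAS43 L1 replicate 1 it was 0.12. For tbg-1 they were 81.3 and 49.0 CPM in FAS43 against 42.3 and 28.8 CPM in N2, 0.87 on the log2 scale (SE 0.576) and 0.45 without that library.

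The neuronal isotypes and tba-4 had negative log2 fold changes in L1, of -0.12 (mec-7, SE 0.652), -0.19 (mec-12, SE 0.634), -0.33 (tbb-4, SE 0.591) and -0.34 (tba-4, SE 0.573), each with edgeR adjusted p = 0.9996. FAS43 L1 replicate 1 was the lowest of the 4 for mec-7, mec-12 and tba-4. The values of mec-7 were 124 and 286 CPM in FAS43 against 202 and 242 CPM in N2, so that the N2 libraries fell between the FAS43 ones. For mec-12 they were 105 and 220 CPM in FAS43 against 186 and 185 CPM in N2. For tbb-4 the order of the FAS43 libraries was the other way, with 40.1 and 12.7 CPM in FAS43 against 30.8 and 35.9 CPM in N2. Leaving out FAS43 L1 replicate 1 gave tbb-4 a value of -1.40, and leaving out FAS43 L1 replicate 2 one of 0.27. Without FAS43 L1 replicate 1 the signs of tba-1, tbb-1, mec-7 and mec-12 turned (-0.13, -0.082, 0.35 and 0.23).

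Marker sums, on the 8-library scale, also differed between the L1 libraries. FAS43 L1 replicate 1, highest in the ubiquitous isotypes and in tbg-1, also had the highest sum of early embryo and maternal genes, 1703 CPM against 231 to 714 CPM in the other 3. The 11 touch receptor neuron genes summed to 236 and 558 CPM in FAS43 L1 against 361 and 427 CPM in N2 L1, lowest and highest in the libraries that were lowest and highest in mec-7 and mec-12. Other tissues had the same lowest and highest library: body wall muscle genes summed to 11674 and 22921 CPM in FAS43 against 18791 and 15863 CPM in N2, 10 intestine genes to 2338 and 12057 CPM in FAS43 against 4492 and 4853 CPM in N2, and the genes of all neurons to 1575 and 3015 CPM in FAS43 against 2617 and 1640 CPM in N2. The 15 ciliated neuron genes summed to 301 and 279 CPM in FAS43 against 394 and 268 CPM in N2 and did not follow tbb-4. The 13 genes of the epidermis and cuticle summed to 3305 and 544 CPM in FAS43 against 1832 and 2029 CPM in N2, with the lowest value in the library lowest in tbb-4. All these markers had counts in every L1 library, and their part in the strain values was not tested.

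In embryos 0 of the 9 genes were called over 13617 tested, of which 0.022% were called (0.00734% higher and 0.0147% lower), 0 by DESeq2 and 0 at an unadjusted p under 0.05. Log2 fold changes of FAS43 over N2 ran from -0.40 (tba-4, SE 0.807) to 0.084 (tbb-2, SE 0.608), with a median of -0.064 against -0.084 for all genes, and edgeR adjusted p was 0.9999 for each. For tbb-2 the values were 999 and 4336 CPM in FAS43 against 2992 and 2042 CPM in N2, and for mec-12 they were 26.2 and 15.2 CPM in FAS43 against 12.1 and 37.4 CPM in N2. The N2 values of tbb-2 fell between the FAS43 ones, as did those of tba-1, tba-2 and, on this within-stage scale but not on the 8-library scale, tbb-1. Leaving out single libraries moved the log2 fold change of tbb-2 between -1.15 and 0.78 and that of mec-12 between -0.85 and 0.99.

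Between embryo libraries the 2 kinds of isotype moved against each other. FAS43 replicate 1 and N2 replicate 2 were above the mean of the 4 embryo libraries for mec-7, mec-12, tbb-4 and tba-4 and below it for the 4 ubiquitous isotypes and tbg-1, while FAS43 replicate 2 and N2 replicate 1 were the reverse. For mec-12 the log2 deviations were 0.57 and -0.53 in FAS43 replicates 1 and 2 and -0.77 and 0.73 in N2 replicates 1 and 2; for tbb-2 they were -0.95 and 0.84 in FAS43 and 0.40 and -0.28 in N2. Several marker sums split in the same way, and not only those of neurons. The maternal sum deviated by -0.79 and 0.73 in FAS43 and by 0.39 and -0.33 in N2. The 10 listed touch receptor neuron genes summed to 69.04 and 24.7 CPM in FAS43 embryos against 21.4 and 55.4 CPM in N2 embryos, and the 15 ciliated neuron genes to 192 and 118.9 CPM in FAS43 against 115.8 and 245 CPM in N2. Body wall muscle genes summed to 3380 and 1873 CPM in FAS43 against 1950 and 3925 CPM in N2. The 9 listed intestine genes summed to 644 and 365 CPM in FAS43 against 313 and 743 CPM in N2. The genes of all neurons, at 568 and 381 CPM in FAS43, differed little between the N2 libraries (451 and 455 CPM). All listed markers had counts in all embryo libraries, and their part in these values was not tested.

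**Figure D4:**
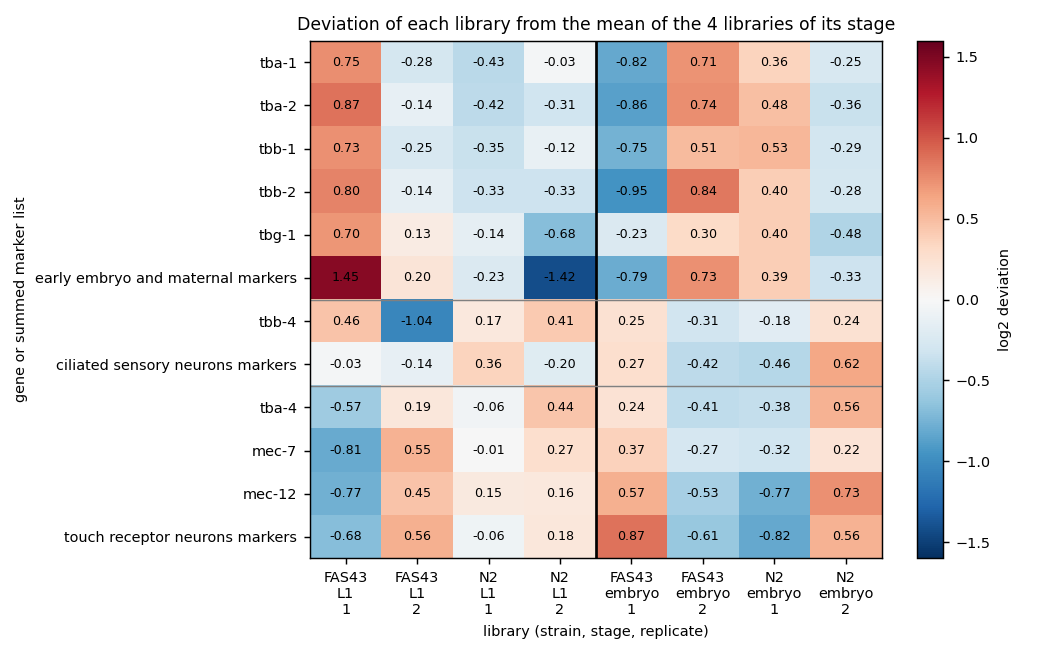
Log2 deviation of each library (columns, strain, stage and replicate) from the mean of the 4 libraries of its stage, for each tubulin gene and for summed marker lists (rows). In embryos the ubiquitous isotypes, tbg-1 and the maternal markers share their sign in every library, and mec-7, mec-12, tba-4, tbb-4 and the touch and ciliated neuron markers have the other one; in L1 the replicate 1 library of FAS43 stands apart, with 1.45 for the maternal markers.

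The difference of the strain effect between stages was 0.79 on the log2 scale for tbg-1 (SE 0.754) and 0.79 for tba-2 (SE 1.01), and -0.35 for tbb-4 (SE 0.827). For mec-7 and mec-12 it was -0.22 (SE 0.792) and -0.15 (SE 0.860). None of the 9 was called (edgeR adjusted p = 0.9986 for each), 0 of the 9 had an unadjusted p under 0.05, and 0.0% of all genes were called, with 199 of 13335 at an unadjusted p under 0.05 by edgeR and 0 called by DESeq2.

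**Figure D5:**
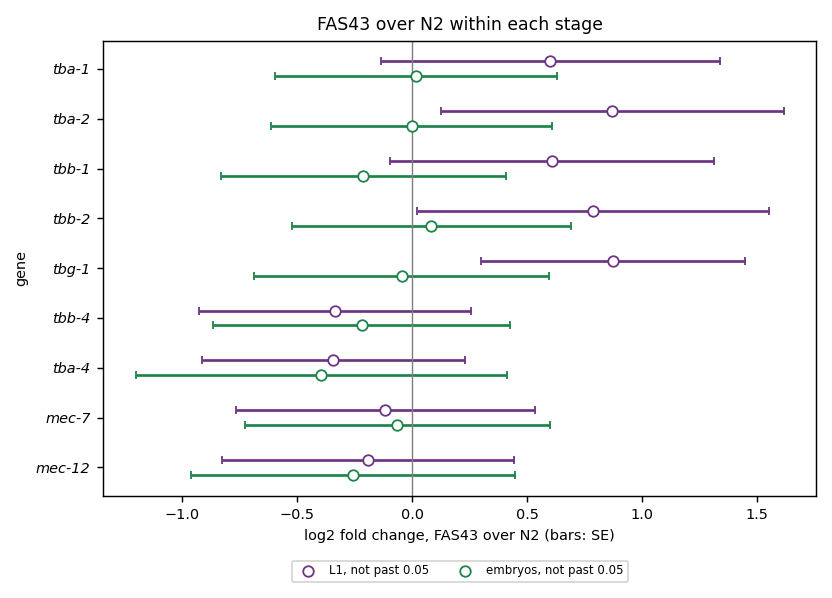
Log2 fold change of FAS43 over N2 for each tubulin gene (x axis) in L1 (upper marker) and embryos (lower marker) from edgeR within each stage, with bars of 1 SE; no gene passed an adjusted p of 0.05. In L1 the 4 ubiquitous isotypes and tbg-1 lie between 0.60 and 0.87, and in embryos all 9 lie between -0.40 and 0.084.

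Other genes of the microtubule system were taken from lists of their roles. Of the 6 remaining tubulin genes tested, 2 rose in FAS43 L1 relative to embryos and 3 in N2 L1, and 0 fell in either. Over all genes 15.8% were called higher in FAS43 and 22.6% in N2. In FAS43 the genes called were the alpha-tubulin tba-7 (4.70 on the log2 scale, edgeR adjusted p = 0.00300) and the beta-tubulin tbb-6 (4.16, edgeR adjusted p = 0.00516). In N2 they were tbb-6 (6.23, edgeR adjusted p = 0.000385), tba-7 (4.72, edgeR adjusted p = 0.00104) and the alpha-tubulin tba-9 (2.53, edgeR adjusted p = 0.0149). The median of the 6 was 1.63 in FAS43 and 2.19 in N2, beside -0.030 in FAS43 and 0.0014 in N2 for all genes. In embryos tbb-6 had the largest strain difference of this list, at 5.19 and 0.439 CPM in FAS43 against 0.633 and 0.839 CPM in N2 (log2 fold change 1.92, SE 0.940, edgeR adjusted p = 0.9999), where 1 FAS43 library stood above the other 3.

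Of 7 tubulin-modifying enzymes tested 2 rose in L1 and 0 fell in both strains, where 15.8% of all genes were called higher in FAS43 and 22.6% in N2: mec-17, the acetyltransferase of alpha-tubulin in touch neurons (log2 fold change 3.81 in FAS43 and 5.20 in N2, edgeR adjusted p = 0.00872 and 0.000953), and the glutamylase gene ttll-11 (2.49 and 3.63, edgeR adjusted p = 0.0405 and 0.00488). Of 20 microtubule-associated proteins 1 rose and 2 fell in FAS43, and 1 rose and 6 fell in N2, where 9.66% of all genes were called lower in FAS43 and 16.2% in N2. The tau-like gene ptl-1 rose (3.05 in FAS43 and 3.26 in N2, edgeR adjusted p = 0.00391 and 0.00109). The katanin subunit gene mei-2, which acts in the meiotic spindle, fell (-2.22 and -3.65, edgeR adjusted p = 0.0306 and 0.00170), as did mei-1 in N2 (-1.90, edgeR adjusted p = 0.0179). The list medians were -0.073 in FAS43 and -0.51 in N2 for these proteins, and 1.03 and 0.99 for the enzymes.

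Several centrosome genes, which act in cell division, fell in L1 relative to embryos. Of 15 centrosome and gamma-tubulin complex genes 4 fell in FAS43 and 8 in N2, and 0 rose in either, with medians of -0.83 in FAS43 and -1.62 in N2. Over all genes 9.66% were called lower in FAS43 and 16.2% in N2. The Aurora A kinase gene air-1 fell (log2 fold change -2.10 in FAS43 and -3.27 in N2, edgeR adjusted p = 0.0207 and 0.00121), and gip-2, a partner of gamma-tubulin, fell by 1.65 in FAS43 and by 2.52 in N2 (edgeR adjusted p = 0.0446 and 0.00386). Of 20 kinesins 4 rose and 0 fell in FAS43, and 2 rose and 4 fell in N2, counts near the shares over all genes for the 4 higher in FAS43 and the 4 lower in N2. Over all genes 15.8% were called higher in FAS43 and 22.6% in N2, so the 2 kinesins higher in N2 lay below that share. The kinesin medians were 0.18 in FAS43 and -0.071 in N2. Among the kinesins osm-3, a motor of sensory cilia, rose (2.55 and 2.73, edgeR adjusted p = 0.0143 and 0.00540) and zen-4, of the central spindle, fell in N2 (-2.83, edgeR adjusted p = 0.00313). The kinesin genes klp-11 (0.092 in FAS43 and -0.16 in N2) and klp-20 (0.14 and 0.022) were not called. Of 20 genes of the chaperonin, prefoldin and tubulin cofactors that fold tubulin, 0 fell in FAS43 and 1 in N2 (pfd-3, -1.64, edgeR adjusted p = 0.0285), with medians of -0.82 in FAS43 and -0.71 in N2. These medians covered unlike parts. The chaperonin genes ran from 0.30 to 1.43 in FAS43 and from -0.53 to 0.86 in N2. Prefoldin genes ran from -1.65 to -1.15 and from -1.64 to -0.74, and cofactors from -1.61 to -0.35 and from -1.36 to -0.030.

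In the strain comparisons 0 genes of these lists were called. In L1 the median of the centrosome genes was 0.73 on the log2 scale, and 14 of 15 values were positive, against a median of -0.0043 for all genes. Their largest value was that of tpxl-1, an activator of air-1 on the spindle, with 95.5 and 42.7 CPM in FAS43 against 32.3 and 15.6 CPM in N2 (1.53, SE 0.606, edgeR adjusted p = 0.9996). The highest library was again FAS43 L1 replicate 1. In embryos the same list had a median of -0.17, with 15 of 15 negative and values from -0.35 (ptrn-1) to -0.0029 (tpxl-1), against -0.084 for all genes. Every one of these values was smaller in size than its SE, which was 0.641 for ptrn-1. The genes of a list were measured in the same libraries, so their signs are not independent in either stage. Medians of the chaperonin, enzyme, associated protein and kinesin lists were 0.019, -0.21, 0.33 and 0.33 in L1 and -0.19, -0.069, -0.20 and -0.25 in embryos.

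Genes with a pattern like that of each tubulin were ranked over the 8 libraries by the root mean square difference of centred log2 CPM, among 5624 named genes with a mean of at least 5 CPM. The nearest to tbb-1 were ebp-2, of a microtubule end-binding protein (0.0891 log2 units), and the proteasome gene rpt-2 (0.0954), and the nearest to tba-2 were usp-14 (0.0905), rpt-2 (0.0936) and mei-1 (0.0947). For tbb-2 and tba-1 they were mans-4 (0.126) and tag-349 (0.117). The gene nearest to tbg-1 was ppfr-2 (0.0644). Those nearest to mec-7 were the synaptotagmin gene snt-6 (0.0932) and the nuclear receptor gene nhr-134 (0.0934), and those nearest to mec-12 were rpy-1 (0.148), a homologue of rapsyn, and the potassium channel gene kqt-3 (0.150). Tubulin genes were left out of this ranking. The nearest to tba-4 was the galectin gene lec-1 (0.1001), and the nearest to tbb-4 were hhat-2 (0.137), the globin gene glb-8 (0.195) and the collagen gene col-76 (0.201).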

How the data were processed

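RNA came from a Trizol extraction, per the labels' protocols, and went into TruSeq stranded mRNA libraries from 1000 ng, read at 50 bases. The build WBcel235 and the tools HTSeq 0.6.1, TopHat2 2.0.13 and edgeR 3.10.5 are named in the submitters' processing notes. Not given in the sources used here: their roles, the strand setting and how multiply mapped reads were counted. The authors deposited one table per stage with raw counts per gene, a normalised signal (per the file headers a normalised count, which equalled the raw count over one constant per library), a log2 fold change and log2 abundance, and p-values with their FDR. Only the raw counts were tested. Neither table lists a gene that falls short of 10 counts in 2 libraries.

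For each comparison the test was that of edgeR 4.0.16 under R 4.3.3 (filterByExpr, TMM factors, quasi-likelihood F-test, Benjamini-Hochberg over all tested genes, called under 0.05). Strains were compared within each stage (2 residual degrees of freedom); stages and the difference of strain effects in one fit of all 8 libraries over 13335 shared genes (4 residual degrees of freedom). The tables were counted separately, so values across stages assume like counting, and table and stage cannot be told apart. SEs were derived from the F statistic. Lengths are the union of annotated exons. The 2 isotype ratios were tested by exact permutation of 4 against 4 libraries. Procedures were tested on simulated counts. DESeq2 1.42.0 and other settings are in the closing section.

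The tubulin genes, the gene lists and the tests were chosen with earlier results of these data known. The text names all 9 genes; from each list, at most 3 called genes per comparison by smallest p, otherwise the largest and smallest strain difference; and the nearest of 3 genes per tubulin by likeness.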

Additional observations from a re-analysis of the deposited data

How the results depend on the processing

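With 2 libraries a group, single libraries moved many values. Calls are at an adjusted p under 0.05 and use edgeR unless DESeq2 is named. Leaving out each library in turn gave 1 to 3 tubulin genes higher and 0 to 3 lower in N2 L1 over embryo, and 0 to 2 higher and 0 lower in FAS43. Over all genes it gave 1174 to 3147 higher and 509 to 2418 lower in N2, 237 to 2352 higher and 17 to 1580 lower in FAS43, 1 to 21 higher and 2 to 5 lower for FAS43 over N2 in embryos, and 1 to 3 higher and 2 to 19 lower in L1.

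The log2 fold changes of FAS43 over N2 in embryos then ran from -1.01 to 0.67 (tba-1), -1.08 to 0.66 (tba-2), -1.03 to 0.37 (tbb-1), -1.15 to 0.78 (tbb-2), -0.83 to 0.45 (tba-4), -0.85 to 0.99 (mec-12), -0.36 to 0.52 (mec-7), -0.47 to 0.29 (tbb-4) and -0.35 to 0.38 (tbg-1). In L1 they ran from -0.13 to 1.08 (tba-1), -0.082 to 1.07 (tbb-1), -0.82 to 0.23 (mec-12), -0.84 to 0.35 (mec-7) and -1.40 to 0.27 (tbb-4). The stage change of tbb-2 in FAS43 ran from -1.70 to 0.093. Differences between stages ran from -0.22 to 1.45 (tba-1), -0.028 to 1.78 (tbb-2), -0.68 to 0.25 (tba-4), -1.09 to 0.50 (mec-12), -1.06 to 0.24 (mec-7) and -1.35 to 0.21 (tbb-4).

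DESeq2 called 5 tubulin genes lower in N2 L1 over embryo against 3 (tba-1 and tbb-2 were added), and 3 higher against 2 in either strain (tba-4 was added), 2108 genes lower in FAS43 against 1288, and 2 higher and 4 lower for FAS43 over N2 in L1 against 1 and 2. In embryos, values of FAS43 over N2 near 0 changed sign, with none called: with DESeq2 and with RLE factors tba-2 was at 0.062 and 0.062, mec-7 at 0.011 and 0.011 and tbg-1 at 0.012 and 0.012; with a CPM of at least 1 in 2 libraries they were at 0.20, 0.13 and 0.16; in one fit of all 8 libraries they were at 0.029, 0.11 and 0.036. The cause was not tested. Dropping the filter changed no call of a tubulin gene.

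Replicate numbers did not pair the samples: differences between replicates 1 and 2 had a correlation over genes of -0.52 between the embryo strains and -0.18 between the L1 strains. With the replicate number as a block, 1 tubulin gene was lower in N2 L1 over embryo in place of 3 (tba-2 at an edgeR adjusted p of 0.0600 and tbb-1 at 0.0720), and tba-1 and tbb-2 were at -0.24 and -0.25 in embryos. With crossed numbers as a block, chosen after seeing the data, they were at -0.24 and -0.25, 16 genes were higher in embryos, and 2 were higher and 4 lower in L1.

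The log2 differences of the neuronal over ubiquitous ratio between L1 and embryos ran from 2.30 to 3.11 (beta) and from 4.07 to 5.01 (alpha) without single libraries, where the smallest exact permutation p that can be had is 0.0571. Without mec-7, which left tbb-4 alone over the ubiquitous pair, the beta difference was 0.30 (exact permutation p = 0.629). Raw counts, with mec-7 kept, gave 2.64 (beta) and 4.49 (alpha).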
